A study of Mus musculus with 4 samples.

Results

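The genes of protein folding, quality control and degradation in the endoplasmic reticulum (ER) were followed in cultured mouse peritoneal macrophages that lacked or carried Ch25h. The list was given by symbol and holds 35 genes, set against the 23735 loci of the table. It divides by role into 4 sensors and regulators, 14 chaperones and cofactors, 5 disulfide enzymes, 5 translocation genes and 7 degradation genes. Each symbol was found on exactly 1 locus, and 34 of the 35 reached the mean of 1 FPKM needed for testing, Derl3 being the exception. FPKM scale fragments by transcript length and by library size, so levels can be set side by side between genes.

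The libraries came from C57BL/6 mice 6 weeks old. The Ch25h_KO group has the genotype ApoE-/-/Ch25h-/- (2 libraries) and the Ch25h_WT group the genotype ApoE-/-/Ch25h+/+ (2 libraries), so both groups are labelled as lacking apolipoprotein E. Macrophages were drawn into the peritoneal cavity by thioglycolate, an irritant, given at 3% some 3 days before collection, and the cells were cultured before total RNA was taken. The series text names 12 mice per group and biological duplicates, without saying how the mice were divided between libraries, so p-values measure the spread between these libraries, which may be partly technical.

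Ch25h encodes cholesterol 25-hydroxylase. Its value was 4.25 and 5.53 FPKM in the Ch25h_KO libraries, against 63.3 and 65.3 FPKM in the Ch25h_WT libraries, so the targeted gene fell, as labelled (log2 change -3.48, SE 0.12, limma adjusted p = 0.0031). Apoe was 3683 and 3373 FPKM in the Ch25h_KO libraries, against 614 and 610 FPKM in the Ch25h_WT libraries, although every library is labelled ApoE-/- (log2 change 2.52, SE 0.066, limma adjusted p = 0.0013). A value per locus does not tell the transcript of a disrupted allele from an intact one, and the difference at Apoe and the genotype at Ch25h cannot be told apart as the groups stand. Depth relative to Ch25h_WT replicate 1 was 0.824 and 0.770 in the Ch25h_KO libraries and 0.800 in Ch25h_WT replicate 2. Among 7 macrophage markers the summed level, most of it Lyz2, was 21932 and 21351 FPKM in the Ch25h_KO libraries and 21548 and 22385 FPKM in the Ch25h_WT libraries. Within that list Csf1r was 274 and 291 FPKM in the Ch25h_KO libraries, against 306 and 316 FPKM in the Ch25h_WT libraries, and Emr1 was 381 and 388 FPKM in the Ch25h_KO libraries, against 418 and 425 FPKM in the Ch25h_WT libraries, both without overlap. Fcgr1 lay on the other side without overlap, at 4.83 and 4.78 FPKM in the Ch25h_KO libraries, against 4.31 and 4.22 FPKM in the Ch25h_WT libraries. Cd68, Itgam, Lyz2 and Mertk overlapped between the groups. Of all tested loci, 30.3% lay lower and 23.4% higher without overlap.

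Proteins bound for the membrane or for export enter the ER through the Sec61 channel and fold there with the help of the chaperone BiP (Hspa5), the lectin chaperones calreticulin and calnexin, and disulfide isomerases. When unfolded chains build up, the sensors IRE1 (Ern1), PERK (Eif2ak3) and ATF6 start the unfolded protein response (UPR): IRE1 splices the mRNA of Xbp1, ATF6 is cut to release a transcription factor, and PERK slows translation and favours that of ATF4. Chains that fail to fold are drawn back to the cytosol for the proteasome, a route called ER-associated degradation (ERAD). Macrophages send many cytokines and enzymes out through this route.

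Promoters of the members are shown because several of them carry the ER stress response element (ERSE), the sequence that ATF6 and XBP1 bind beside NF-Y. An ERSE was searched as CCAAT and CCACG with 9 bases between them, and an ERSE-II as ATTGG and CCACG with 1 base between them, on both strands. The RefSeq promoter table (build GRCm38.p6, 250 bases before to 50 bases after each start) held 28 of the 35 members, and 9 of the 28 (32.1%) had an ERSE. Among all 32851 promoters the count was 39 (0.119%), and of 7809 tested genes with a promoter 12 did (0.154%), members included in both counts. The elements are written 5′ to 3′ on their own strand, with the searched bases in capitals.
Hspa5: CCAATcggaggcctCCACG
Hsp90b1, far element: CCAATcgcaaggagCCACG
Hsp90b1, near element: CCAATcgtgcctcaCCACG
Calr: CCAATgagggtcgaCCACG
Canx: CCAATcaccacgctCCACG
Pdia6: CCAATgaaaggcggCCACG
Dnajc3: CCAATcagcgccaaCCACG
Creld2: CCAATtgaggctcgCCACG
Syvn1: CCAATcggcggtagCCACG
Derl3: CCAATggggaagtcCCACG

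An ERSE-II stood in 2 further member promoters, against 12 of all promoters (0.0365%).
Herpud1: ATTGGgCCACG
Dnajb11: ATTGGcCCACG

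The whole promoters of Hspa5 and Herpud1 are given next, since Hspa5 is the most abundant member, lower in the Ch25h_KO libraries, and Herpud1 is the member with the largest difference on the higher side. Hspa5 lies on the plus strand (GRCm38.p6, chr2:34771840-34772139) and Herpud1 also (GRCm38.p6, chr8:94386179-94386478), with the searched bases of the ERSE and the ERSE-II in capitals.
Hspa5 promoter: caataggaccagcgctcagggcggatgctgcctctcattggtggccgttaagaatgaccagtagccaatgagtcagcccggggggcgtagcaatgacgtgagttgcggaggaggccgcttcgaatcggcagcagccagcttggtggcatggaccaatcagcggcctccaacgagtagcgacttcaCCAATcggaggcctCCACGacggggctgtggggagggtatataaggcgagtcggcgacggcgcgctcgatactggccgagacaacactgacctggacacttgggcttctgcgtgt
Herpud1 promoter: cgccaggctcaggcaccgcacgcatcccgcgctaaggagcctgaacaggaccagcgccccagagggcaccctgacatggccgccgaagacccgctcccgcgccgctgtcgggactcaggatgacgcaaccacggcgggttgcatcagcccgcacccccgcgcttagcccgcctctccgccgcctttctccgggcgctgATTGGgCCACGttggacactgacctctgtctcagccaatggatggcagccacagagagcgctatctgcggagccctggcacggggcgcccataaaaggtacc
The UPR element core (TGACGTGG or TGACGTGA) was in 1 member promoter, that of Hspa5, and in 1.12% of all promoters, and the C/EBP-ATF element TGATGCAAT was in 0 of the 28 and in 0.192% of all promoters. A match describes letters in this window and is not a bound site.

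Across the list, most chaperones and all 5 disulfide enzymes had lower values in the macrophages without Ch25h, by less than the adjusted test requires, the sensors differed by little, and the degradation genes lay on both sides. The 35 members summed to 4335 and 4351 FPKM in the Ch25h_KO libraries, against 5120 and 5238 FPKM in the Ch25h_WT libraries, or 0.593% and 0.607% against 0.731% and 0.740% of all FPKM. In bulk RNA, fewer cells of a type and less of the RNA per cell cannot be told apart. The median log2 change of the 34 tested members was -0.20, Ch25h_KO minus Ch25h_WT on the log2(FPKM + 1) scale, beside -0.014 over all 10074 tested loci.

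No member passed the test over all loci (limma, Benjamini-Hochberg adjusted p under 0.05), a threshold that 44 loci or 0.437% of those tested passed. That count of loci was 13 and 14 without Ch25h_KO replicates 1 and 2, and 15 and 21 without Ch25h_WT replicates 1 and 2. At unadjusted p under 0.05 with the same limma fit, 19 of the 34 tested members (55.9%) were lower in the Ch25h_KO libraries, where 11.5% of all tested loci were, and 1 was higher, where 9.38% of loci were. The count of lower members was 12 without Ch25h_WT replicate 2. Both Ch25h_KO libraries lay below both Ch25h_WT libraries for 25 tested members (73.5%, against 30.3% of all tested loci) and above both for 2 members (5.88%, against 23.4% of loci). With limma's trend and robust options, which let the expected spread follow the level, 16 members passed at the adjusted threshold, all 16 of them lower, where 786 loci or 7.80% of those tested passed. Members at high levels were no exception to this: 13 had a mean of at least 100 FPKM, with a median log2 change of -0.26, beside 0.0079 over the 748 loci at that level.

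**Figure D1:**
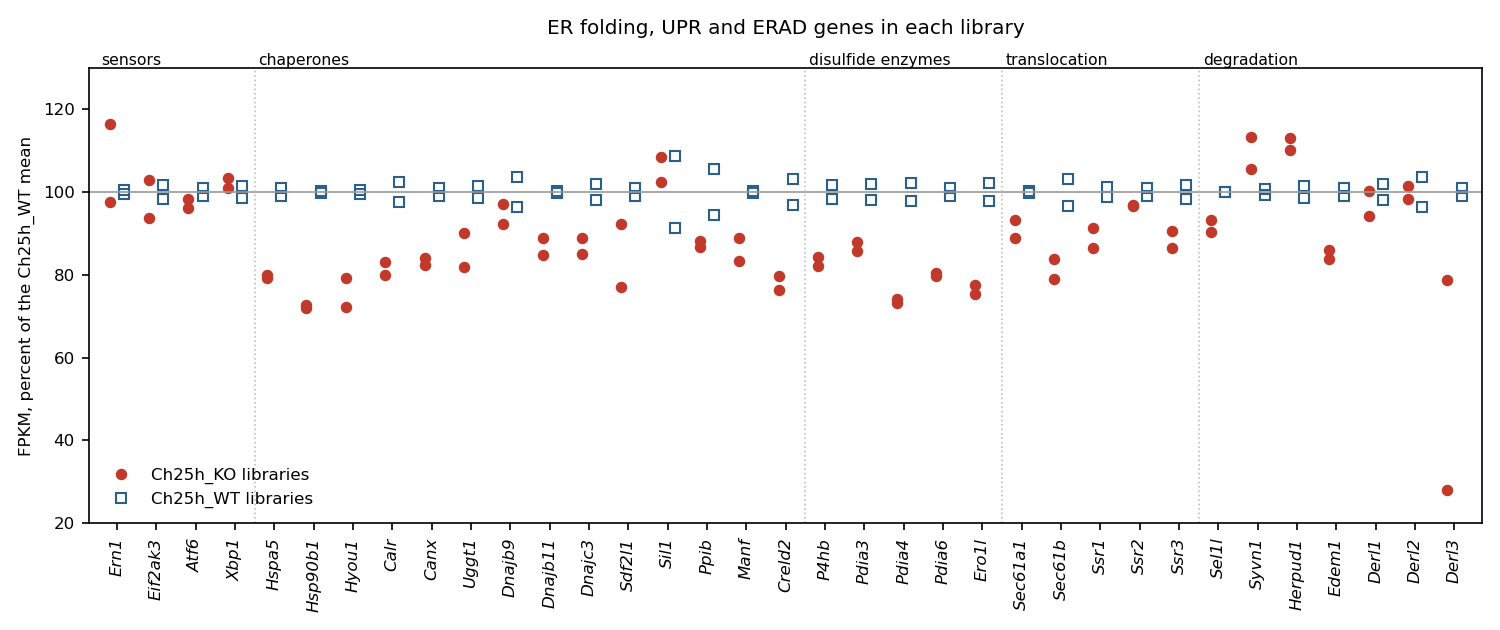
Level of each of the 35 members in each library, as a percent of the Ch25h_WT mean of that gene (filled circles, Ch25h_KO libraries; open squares, Ch25h_WT libraries), ordered by role. Both Ch25h_KO points lie below both Ch25h_WT points for 12 of 14 chaperones and for all 5 disulfide enzymes, and above them for Syvn1 and Herpud1. Of all tested loci, 30.3% lie below and 23.4% above in this way.

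The sensors differed by little between the groups. Ern1 was 20.4 and 24.4 FPKM in the Ch25h_KO libraries, against 20.8 and 21.0 FPKM in the Ch25h_WT libraries. Eif2ak3 was 11.3 and 12.4 FPKM in the Ch25h_KO libraries, against 11.9 and 12.3 FPKM in the Ch25h_WT libraries. In both genes the groups overlapped, and the spread lay within the Ch25h_KO pair. Atf6 was 20.3 and 20.7 FPKM in the Ch25h_KO libraries, against 20.9 and 21.3 FPKM in the Ch25h_WT libraries, without overlap, and its group means lay little further apart than the libraries within a pair. Xbp1, whose mRNA is spliced by IRE1, was 109.9 and 112 FPKM in the Ch25h_KO libraries, against 110.3 and 107 FPKM in the Ch25h_WT libraries, and a value per locus does not tell its spliced form from the unspliced one. The log2 changes of the 4 genes ran from -0.038 to 0.088, with standard errors (SE) of 0.052 to 0.095.

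The major chaperones were lower. Hsp90b1, which encodes the ER chaperone GRP94, was 264 and 267 FPKM in the Ch25h_KO libraries, against 367 and 366 FPKM in the Ch25h_WT libraries. Its gap was the widest among the 34 tested members, 27.6% lower (log2 change -0.46, SE 0.051, limma adjusted p = 0.066). Hspa5, the master chaperone that also keeps the sensors at rest, was 710.2 and 716 FPKM in the Ch25h_KO libraries, against 887 and 903 FPKM in the Ch25h_WT libraries. That is 20.3% lower (log2 change -0.33, SE 0.052, limma adjusted p = 0.097), and replicates within a group lay far closer than the groups. Hyou1, the exchange factor GRP170 of BiP, was 70.4 and 77.1 FPKM in the Ch25h_KO libraries, against 97.9 and 97.0 FPKM in the Ch25h_WT libraries (log2 change -0.40, SE 0.066, limma adjusted p = 0.099). Creld2, an ER protein induced by stress, was 77.6 and 80.9 FPKM in the Ch25h_KO libraries, against 104.7 and 98.5 FPKM in the Ch25h_WT libraries (log2 change -0.35, SE 0.061, limma adjusted p = 0.102).

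The lectin chaperones hold glycoproteins while they fold. Calr was 566 and 589 FPKM in the Ch25h_KO libraries, against 691 and 726 FPKM in the Ch25h_WT libraries. Canx was 133 and 129.9 FPKM in the Ch25h_KO libraries, against 156 and 159 FPKM in the Ch25h_WT libraries. Uggt1, which marks unfolded glycoproteins for another round, was 14.5 and 15.9 FPKM in the Ch25h_KO libraries, against 17.4 and 17.9 FPKM in the Ch25h_WT libraries. All 3 were lower without overlap, with log2 changes of -0.30, -0.26 and -0.21 and limma adjusted p of 0.113, 0.113 and 0.200.

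Among the cofactors the differences were smaller and less even. The BiP partners of the DnaJ family parted: Dnajb11 was 69.0 and 72.3 FPKM in the Ch25h_KO libraries, against 81.6 and 81.1 FPKM in the Ch25h_WT libraries. Dnajc3, which also restrains PERK, was 27.6 and 26.4 FPKM in the Ch25h_KO libraries, against 31.7 and 30.4 FPKM in the Ch25h_WT libraries. Both were lower without overlap. Dnajb9, a target of spliced XBP1, was 53.2 and 50.5 FPKM in the Ch25h_KO libraries, against 56.7 and 52.8 FPKM in the Ch25h_WT libraries, where the groups overlapped. Manf, a stress-induced protein of the ER that is also secreted, was 83.5 and 78.2 FPKM in the Ch25h_KO libraries, against 93.8 and 94.1 FPKM in the Ch25h_WT libraries. Sdf2l1 was 56.9 and 47.6 FPKM in the Ch25h_KO libraries, against 61.2 and 62.3 FPKM in the Ch25h_WT libraries, so 1 Ch25h_KO library held most of its gap. The prolyl isomerase gene Ppib was 236 and 232 FPKM in the Ch25h_KO libraries, against 252 and 282 FPKM in the Ch25h_WT libraries, and here the Ch25h_WT pair was the uneven one. Sil1, another exchange factor of BiP, overlapped between the groups (log2 change 0.075, SE 0.095). In all, 10 of the 14 chaperones and cofactors were lower at unadjusted p under 0.05 (limma) and none was higher, with a median log2 change of -0.23. At that threshold 11.5% of all tested loci were lower and 9.38% higher.

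The disulfide enzymes formed the evenest group, with all 5 lower at unadjusted p under 0.05 (limma), without overlap, and a median log2 change of -0.32. Among all tested loci 11.5% were lower at that threshold and 30.3% lay lower without overlap. Pdia4 (ERp72) was 74.9 and 76.1 FPKM in the Ch25h_KO libraries, against 100.2 and 104.8 FPKM in the Ch25h_WT libraries (log2 change -0.44, SE 0.055, limma adjusted p = 0.078). A microRNA gene, Mir704, shares this locus in the table and cannot be separated from it. Ero1l, the oxidase that recharges the isomerases (now named Ero1a) and that is also induced by hypoxia, was 43.6 and 42.5 FPKM in the Ch25h_KO libraries, against 55.1 and 57.5 FPKM in the Ch25h_WT libraries (log2 change -0.38, SE 0.056, limma adjusted p = 0.090). Pdia6, which attenuates IRE1 signalling, was 186 and 184 FPKM in the Ch25h_KO libraries, against 229 and 234 FPKM in the Ch25h_WT libraries. The 2 most abundant isomerases had the smaller gaps. P4hb, the classical protein disulfide isomerase, was 428 and 439 FPKM in the Ch25h_KO libraries, against 512 and 529 FPKM in the Ch25h_WT libraries. Pdia3, the partner of calnexin and calreticulin, was 268 and 260.4 FPKM in the Ch25h_KO libraries, against 298 and 309.7 FPKM in the Ch25h_WT libraries.

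In FPKM, the 3 most abundant members were the same in both groups. Hspa5, Calr and P4hb led at 713 ± 4.17, 577 ± 16.2 and 433 ± 8.09 FPKM in the Ch25h_KO libraries and at 895 ± 10.9, 709 ± 24.6 and 520.2 ± 12.0 FPKM in the Ch25h_WT libraries (SD, n = 2 libraries per group). Next came Hsp90b1 and Pdia3, at 265 ± 2.15 and 264 ± 5.05 FPKM in the Ch25h_KO libraries, a gap within their spread. In the Ch25h_WT libraries the same pair stood apart, at 367 ± 0.722 and 304 ± 8.22 FPKM.

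**Figure D2:**
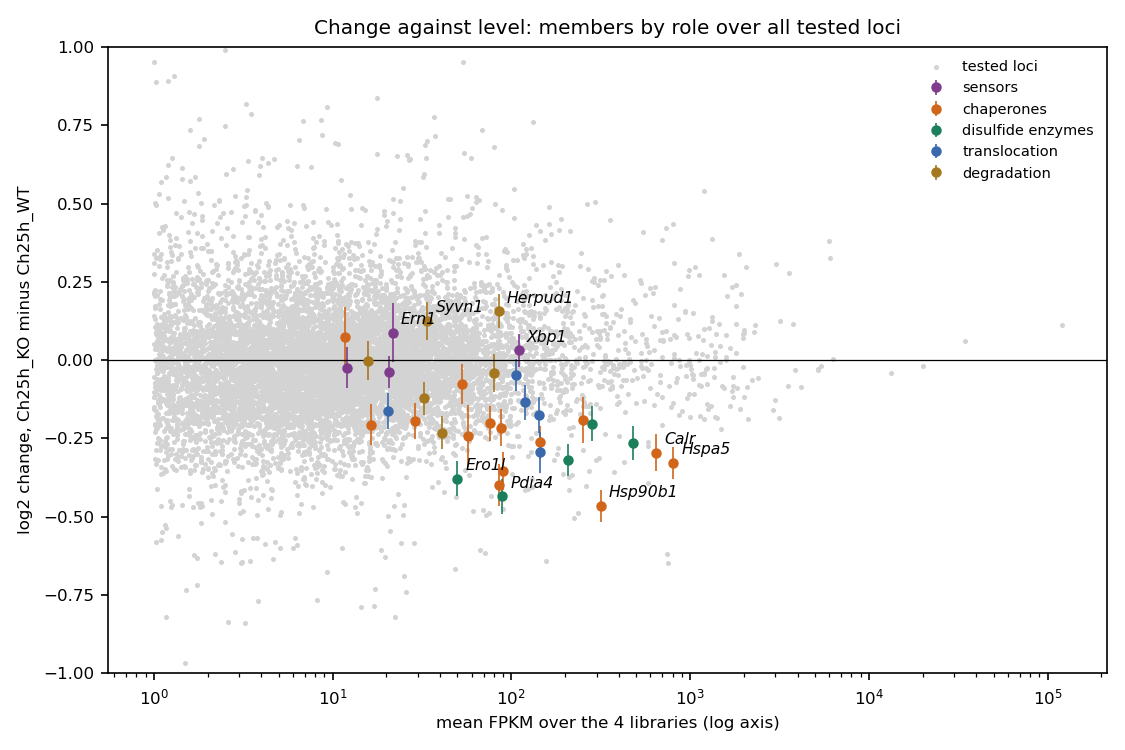
Log2 change (Ch25h_KO minus Ch25h_WT, log2(FPKM + 1) scale) against the mean FPKM of the 4 libraries on a log axis, for all tested loci (grey, 58 loci beyond ± 1 not drawn) and the 34 tested members (coloured by role, bars are SE). Of the 13 members at a mean of at least 100 FPKM all but Xbp1 lie below 0, with Hsp90b1 (-0.46) lowest, and Herpud1 (0.16) is the highest member.

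The translocation genes were lower by less. Sec61b, the small beta subunit of the channel, was 134 and 127 FPKM in the Ch25h_KO libraries, against 155 and 165 FPKM in the Ch25h_WT libraries (log2 change -0.29, SE 0.065, limma adjusted p = 0.124). Sec61a1, the pore itself, was 112 and 117 FPKM in the Ch25h_KO libraries, against 125 and 126 FPKM in the Ch25h_WT libraries (log2 change -0.13, SE 0.056). Of the subunits of the TRAP complex, which helps chains into the channel, Ssr3 was 138 and 132 FPKM in the Ch25h_KO libraries, against 155 and 149.7 FPKM in the Ch25h_WT libraries. Ssr1 was likewise lower (log2 change -0.16, SE 0.057), and Ssr2 differed least (-0.048, SE 0.052). All 5 lay without overlap on the lower side, as did 30.3% of all tested loci. At unadjusted p under 0.05 (limma) 3 of them were lower, beside 11.5% of all tested loci.

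The degradation genes lay on both sides, and the group summed to 293 and 285 FPKM in the Ch25h_KO libraries and 288 and 289 FPKM in the Ch25h_WT libraries. Herpud1, a stress-induced scaffold of the ERAD ligase, was 90.8 and 88.4 FPKM in the Ch25h_KO libraries, against 81.5 and 79.1 FPKM in the Ch25h_WT libraries (log2 change 0.16, SE 0.054, limma adjusted p = 0.216). Syvn1, the ligase HRD1, was 34.2 and 36.7 FPKM in the Ch25h_KO libraries, against 32.1 and 32.6 FPKM in the Ch25h_WT libraries (log2 change 0.13, SE 0.061, limma adjusted p = 0.317). These were the only members with both Ch25h_KO libraries above both Ch25h_WT libraries. Edem1, which delivers misfolded glycoproteins to the ligase, was 37.8 and 36.9 FPKM in the Ch25h_KO libraries, against 44.5 and 43.6 FPKM in the Ch25h_WT libraries (log2 change -0.23, SE 0.053, limma adjusted p = 0.127). Sel1l, the partner that steadies HRD1, was 31.6 and 30.6 FPKM in the Ch25h_KO libraries, against 33.9 and 34.0 FPKM in the Ch25h_WT libraries. Of the derlins, which form part of the exit channel, Derl1 and Derl2 overlapped between the groups (log2 changes -0.040 and -0.0010). Derl3 was close to the limit of detection, at 0.693 and 0.247 FPKM in the Ch25h_KO libraries and 0.889 and 0.873 FPKM in the Ch25h_WT libraries, and was not tested.

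**Figure D3:**
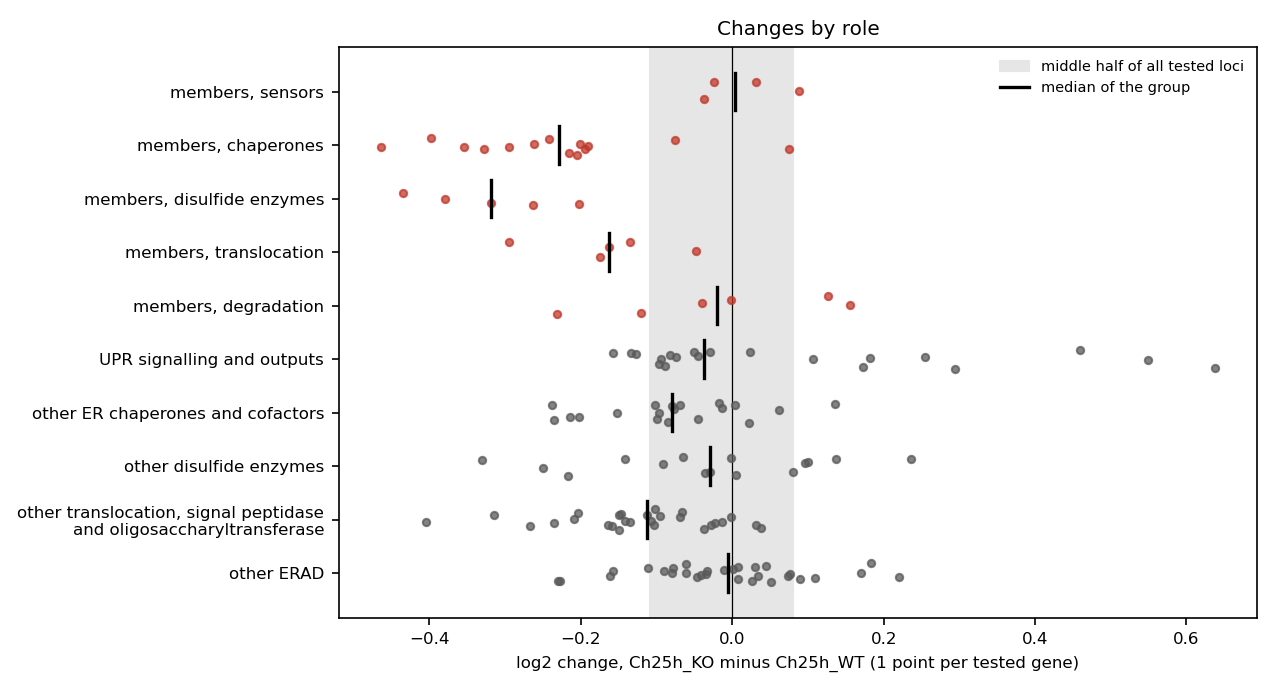
Log2 change of each tested gene (Ch25h_KO minus Ch25h_WT, 1 point per gene) by role, for the members (red) and the wider list of the pathway (grey), with black bars at each median and a grey band from the lower to the upper quartile of all tested loci. The medians are -0.32 for disulfide enzymes, -0.23 for chaperones and -0.16 for translocation, and near 0 for sensors (0.0039) and degradation (-0.021).

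A wider list of 115 genes of the same pathway, none of them members, had a median log2 change of -0.061, and the difference from the members' median was not tested. Of its 111 tested genes, 1 passed over all loci (limma, Benjamini-Hochberg adjusted p under 0.05), and at unadjusted p under 0.05 there were 19 lower (17.1%) and 10 higher (9.01%), beside the 11.5% and 9.38% of all tested loci. Its translocation, signal peptidase and oligosaccharyltransferase genes lay mostly on the lower side: at unadjusted p under 0.05 (limma) 9 of 27 tested were lower and none was higher, and the median log2 change was -0.11. Magt1, a subunit of the oligosaccharyltransferase, was 14.9 and 15.0 FPKM in the Ch25h_KO libraries, against 19.4 and 18.3 FPKM in the Ch25h_WT libraries. Sec63, which recruits BiP to the channel, was 14.6 and 14.1 FPKM in the Ch25h_KO libraries, against 17.6 and 17.4 FPKM in the Ch25h_WT libraries. The third channel subunit, Sec61g, named after its values were seen, was 112 and 111 FPKM in the Ch25h_KO libraries, against 138 and 159 FPKM in the Ch25h_WT libraries. Higher in this group by smallest p were Srp9 and Srp19 of the signal recognition particle, at log2 changes of 0.031 and 0.038, with overlap.

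Of the other chaperones, 4 of 19 tested (21.1%) were lower at unadjusted p under 0.05 (limma) and none was higher. Among the other disulfide enzymes 2 of 15 (13.3%) were lower and 1 (6.67%) higher. This second group thus lay near the shares of all tested loci, 11.5% lower and 9.38% higher. Sdf2, a relative of Sdf2l1, was 43.0 and 43.7 FPKM in the Ch25h_KO libraries, against 51.3 FPKM in each Ch25h_WT library. The chaperone gene Hspa13 was 16.2 and 16.7 FPKM in the Ch25h_KO libraries, against 19.9 and 19.2 FPKM in the Ch25h_WT libraries, while Prkcsh and Tor1a had log2 changes of 0.062 and 0.14. Ero1lb, the second ER oxidase, was 10.9 and 9.47 FPKM in the Ch25h_KO libraries, against 12.7 and 13.4 FPKM in the Ch25h_WT libraries. The isomerase gene Txndc5 was lower too (log2 change -0.22), and Tmx1 and the peroxiredoxin gene Prdx4 lay on the other side (0.24 and 0.14). Of 30 tested ERAD genes outside the member list, 4 (13.3%) were lower and 2 (6.67%) higher at unadjusted p under 0.05 (limma). That is near the 11.5% and 9.38% of all tested loci. By direction alone 15 lay lower and 15 higher, with a median log2 change of -0.0050. The lower ones by smallest p were the ubiquitin-conjugating enzyme gene Ube2g2 (-0.23) and Edem2 (-0.23), and the higher ones were Aup1 (0.22) and Herpud2, the relative of Herpud1 (0.17).

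Several genes downstream of PERK and ATF4 stood on the higher side. Of 20 genes of UPR signalling and outputs, 7 were higher at unadjusted p under 0.05 (limma) and none was lower, and 1, Chac1, passed over all loci. At that unadjusted threshold 9.38% of all tested loci were higher and 11.5% lower. By sign and median the group did not lean that way: 11 of the 20 had a log2 change below 0 and the median was -0.037. Both Ch25h_KO libraries lay above both Ch25h_WT libraries for 8 of the 20, where 23.4% of all tested loci did. They lay below both for 7 of the 20, where 30.3% of loci did. The difference from these shares was not tested. Chac1, which degrades glutathione, rose to 32.9 and 33.1 FPKM in the Ch25h_KO libraries, against 21.6 and 20.1 FPKM in the Ch25h_WT libraries (log2 change 0.64, SE 0.060, limma adjusted p = 0.043). That call was lost in several settings, among them without each library in turn (limma adjusted p = 0.219 to 0.230), with no filter on low values (0.085) and with a pseudocount of 0.1 (0.081). Trib3, a pseudokinase that restrains ATF4, was 30.1 and 29.3 FPKM in the Ch25h_KO libraries, against 19.2 and 20.8 FPKM in the Ch25h_WT libraries (log2 change 0.55, SE 0.064, limma adjusted p = 0.066).

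The next 4 genes, named after their values were seen, belong to the same arm. Ddit3, which encodes CHOP, was 68.9 and 63.0 FPKM in the Ch25h_KO libraries, against 48.3 and 47.0 FPKM in the Ch25h_WT libraries (log2 change 0.46, limma adjusted p = 0.088). Ppp1r15a (GADD34), which lifts the block on translation, was 42.4 and 41.0 FPKM in the Ch25h_KO libraries, against 34.8 and 32.8 FPKM in the Ch25h_WT libraries. Atf4 itself was 368 and 351 FPKM in the Ch25h_KO libraries, against 289 and 314 FPKM in the Ch25h_WT libraries. Atf3, another target of this arm, lay on the other side, at 83.0 and 83.6 FPKM in the Ch25h_KO libraries, against 89.7 and 86.8 FPKM in the Ch25h_WT libraries. ATF4 also answers to lack of amino acids and other stresses, and these genes do not tell one source from another. Rtcb, the ligase that joins the cut ends of Xbp1, and the adaptor gene Nck1 were lowest by p in this group (log2 changes -0.16 and -0.13, limma adjusted p = 0.288 and 0.303). The 2 directions were not set against each other in a test of their own.

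**Figure D4:**
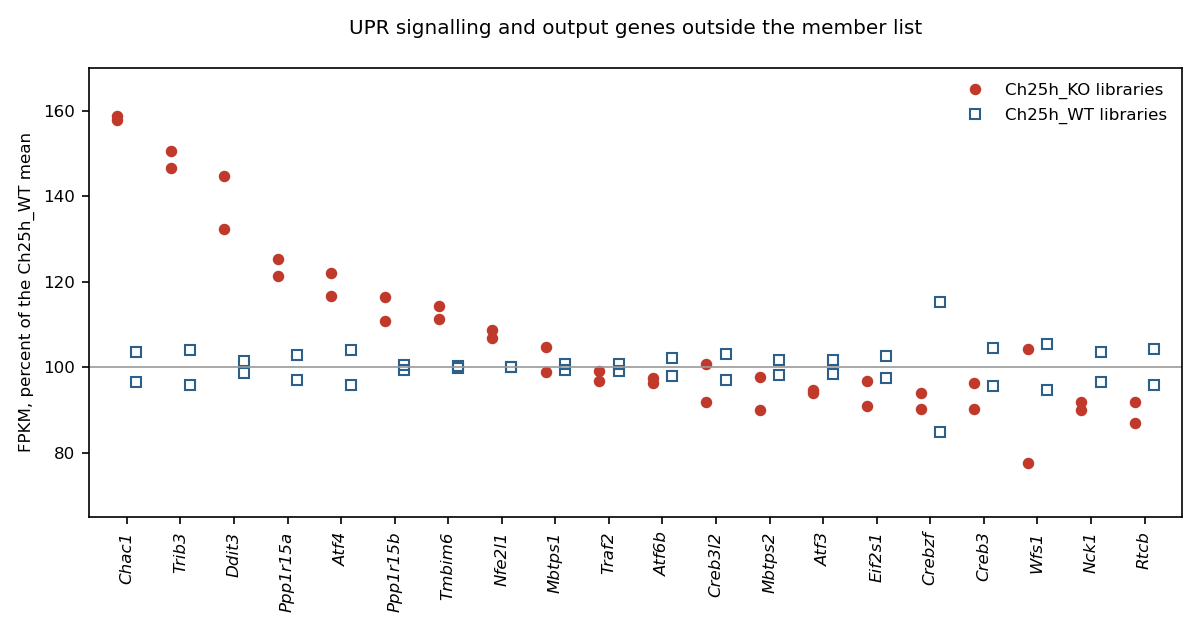
Level of the 20 genes of UPR signalling and outputs in each library, as a percent of the Ch25h_WT mean of that gene (filled circles, Ch25h_KO libraries; open squares, Ch25h_WT libraries), ordered by log2 change. Both Ch25h_KO points lie above both Ch25h_WT points for 8 genes, led by Chac1 and Trib3, and below them for 7 genes, with Rtcb and Nck1 the lowest. Of all tested loci, 23.4% lie above and 30.3% below in this way.

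Set beside the promoters shown above, the members with an ERSE were mostly lower. Of 8 tested members with an ERSE 7 were lower at unadjusted p under 0.05 (limma) and none was higher, with a median log2 change of -0.31 and a range from -0.46 to 0.13. Of 19 tested members whose window held no ERSE 10 were lower and 1 was higher, with a median of -0.19 and a range from -0.44 to 0.16. These 19 include Herpud1 and Dnajb11, which held an ERSE-II. Of all tested loci 11.5% were lower and 9.38% higher at that threshold. The ranges with and without an ERSE overlapped almost wholly, and the difference was not tested. Pdia4 and Ero1l, low in the Ch25h_KO libraries, held no ERSE in the window, and Syvn1 and Herpud1, on the higher side, held an ERSE and an ERSE-II. Hsp90b1, with the widest gap among the tested members, was the only one of the 28 with more than 1 exact match to the ERSE as searched. Near matches were not counted, and a link between the number of elements and the change was not tested. Outside the list 4 tested genes had an ERSE: Ero1lb and Hnrnpa3 were lower at unadjusted p under 0.05, and Alg12 and Pan2 had log2 changes of -0.12 and 0.031.

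**Figure D5:**
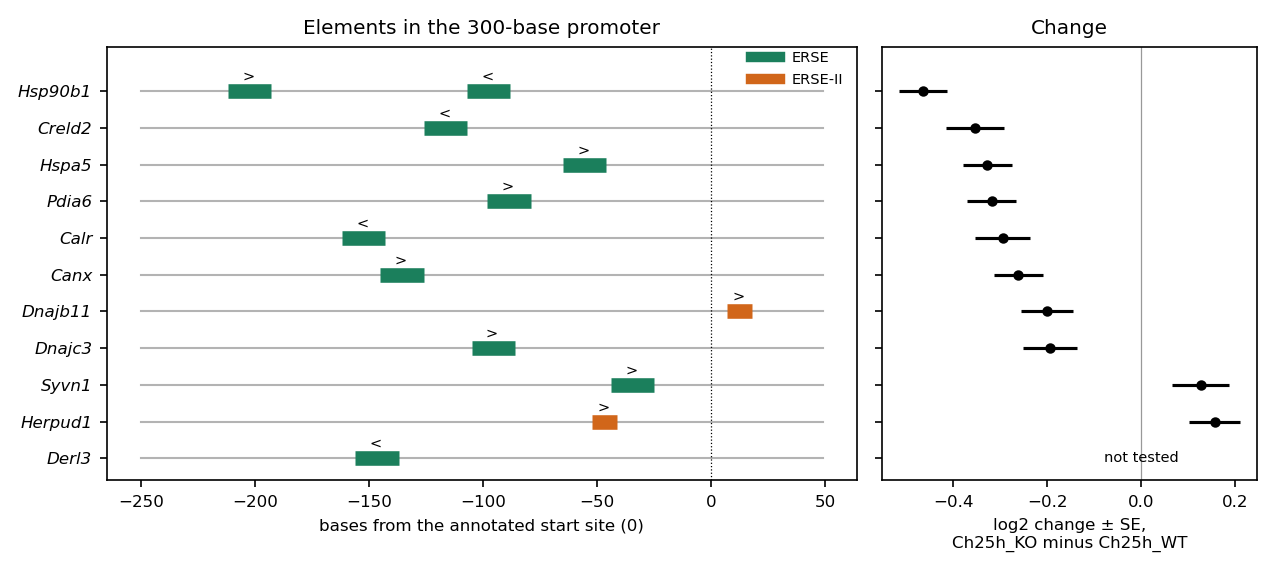
Left, place of each ERSE (green) and ERSE-II (orange) in the promoters of 11 members, in bases from the annotated start site, with arrowheads for the strand of the element relative to the gene; right, log2 change of the same gene (Ch25h_KO minus Ch25h_WT, bars are SE). Of the 10 tested genes 8 lie below 0, and Syvn1 (0.13) and Herpud1 (0.16) above it.

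Markers of other cells also differed between the groups. Summed over 7 mast cell markers the level was 156 and 159 FPKM in the Ch25h_KO libraries, against 223 and 229 FPKM in the Ch25h_WT libraries, with Ms4a2 at 0 in 1 Ch25h_KO library and under 1 FPKM in the rest. The 5 plasma cell markers, of a cell type rich in ER chaperones, summed to 95.4 and 94.7 FPKM in the Ch25h_KO libraries, against 85.9 and 81.4 FPKM in the Ch25h_WT libraries. Most of that sum was Mzb1 and Pou2af1. Igj was only 1.24 and 1.33 FPKM in the Ch25h_KO libraries, against 0.872 and 0.710 FPKM in the Ch25h_WT libraries, so the sum says little about plasma cells. The 6 B cell markers summed to 304 and 321 FPKM in the Ch25h_KO libraries and 334 and 338 FPKM in the Ch25h_WT libraries. The 6 neutrophil markers found, mostly S100a8, summed to 115 and 116 FPKM in the Ch25h_KO libraries and 71.1 and 81.5 FPKM in the Ch25h_WT libraries. S100a9 was higher too, but Camp lay on the other side, at 0.880 and 0.471 FPKM in the Ch25h_KO libraries, against 0.906 and 1.36 FPKM in the Ch25h_WT libraries. Elane, Mpo and Ngp were under 1 FPKM in every library, so the sum says little about neutrophils. The 7 fibroblast and mesothelium markers summed to 4.41 and 3.70 FPKM in the Ch25h_KO libraries and 1.47 and 1.16 FPKM in the Ch25h_WT libraries, and the 6 T cell markers to 5.88 and 7.33 FPKM in the Ch25h_KO libraries and 5.59 and 6.40 FPKM in the Ch25h_WT libraries. No marker of these lists was at 0 in all libraries, while Tnfrsf17 and Elane were above 0 only in Ch25h_WT replicate 2. The part of these cells in the lower folding genes was not tested.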

How the data were processed

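Peritoneal macrophage RNA-seq of 4 libraries was used. The authors deposited 1 table of values per locus and library, taken as FPKM from its range, decimals and Cufflinks-type locus identifiers, since its header names no unit. Of upstream tools, bcl2fastq, Cufflinks 2.2.1 and TopHat2 2.0.14 are listed, with build mm9, per the submitters' processing notes. Annotation, strand setting and scaling are not stated there, so overlapping genes cannot be told apart. Every column of values belonged to a library of the series.

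The 24192 lines held identical values within a locus and were joined into 23735 loci. Differences were fitted with limma 3.58.1 (R 4.3.3) on log2(FPKM + 1), which understates changes of low genes, over the 10074 loci that averaged 1 FPKM or more. Genotype was the model's one term, and p-values were adjusted by Benjamini-Hochberg over all these loci. FPKM are not counts, so no count test was run. The limma fit was tested on simulated data, with changes larger than that of any tested member. That trial does not cover changes of the members' size. Relative depth came from the most common ratio between libraries among values under 0.5 FPKM. Absolute depth was not derived, and no counting intervals are given.

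Members and lists were chosen with earlier results of these data known. All members are named, with Ch25h, Apoe and, from each group of the wider list, at most 2 genes higher and 2 lower by smallest p. Sec61g, Ddit3, Ppp1r15a, Atf4 and Atf3 were added after their values were seen. Promoter sequences are RefSeq's for GRCm38.p6, matched by symbol, another build than that of the table. Of 29 member promoters checked, 26 had their last 20 bases near the start of a GENCODE transcript. The rest did not, so a window without an ERSE may not be the promoter in use. In the wider list Srp54a stood on more than 1 locus and Fam8a1 was not matched, so neither was used. The split at 100 FPKM was chosen after the values were seen.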

Additional observations from a re-analysis of the deposited data

How the results depend on the processing

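Under the 7 alternatives that keep all 4 libraries the median of the members stayed below 0 and the number of members lower at unadjusted p under 0.05, 19 as reported, ran from 18 to 23, while counts at the adjusted threshold moved further. The number of loci passing was 44, against 175 with the filter raised to 5 FPKM, 18 with no filter, 786 with limma's trend and robust options and 6 with the replicate block. The number of members passing was 0, against 5 and 16 with the filter at 5 FPKM and with the trend and robust options. The number of members higher at unadjusted p under 0.05 was 1, against 2 with the trend and robust options and 0 with the replicate block, in which 18 members were lower and Chac1 had a limma adjusted p of 0.142. With a library left out, loci passing ranged from 13 to 21, members passing stayed at 0, members lower ranged from 12 to 18, members higher from 0 to 1, and the median log2 change of members from -0.21 to -0.17. Of the members, 12 stayed at unadjusted p under 0.05 in the fit as reported and all 11 alternatives, and 29 kept their direction. Those that changed sign were close to 0: Derl2 was 0.013 with median ratio scaling, and with a library left out Derl2 ranged from -0.050 to 0.048, Eif2ak3 from -0.085 to 0.038, Ern1 from -0.035 to 0.21, Derl1 from -0.084 to 0.0037 and Sil1 from -0.041 to 0.19. Outside the list Srp9 ranged from -0.013 to 0.076 and Srp19 from -0.033 to 0.11. The cause of these shifts was not tested. Replicate numbers are shared between the groups, but the labels name no pairing. The deviations of same-numbered libraries correlated at 0.012 over loci, which cannot tell whether such libraries were handled together. With 2 libraries per group the spread is poorly known, and this limits every adjusted p given here.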
